A study of Homo sapiens with 15 samples.

Results

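Cells of the cisplatin-resistant ovarian cancer line IGROV-CP20 that received cisplatin, alone or after another drug, were compared here with untreated cells of the same line, and the genes described are those that moved the same way in every library given cisplatin. A gene was included when its normalised read count in all 12 cisplatin libraries lay above, or in all 12 below, its count in all 3 untreated libraries. Of 24733 genes with a count in any library, 2259 met this rule, 692 above and 1567 below. Of these, 676 above and 1453 below also passed the filter on low counts that kept 11113 genes for testing, and the other 16 and 114 are counted but not tested.

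Gene expression was measured by sequencing the 3′ ends of polyadenylated transcripts (QuantSeq), in which a transcript gives reads near its end whatever its length, and raw read counts per gene were analysed for 15 libraries, 3 in each of 5 conditions. The line was derived from the ovarian cancer line IGROV and tolerates platinum, and all groups are the same line, so no parental cells entered the comparison. The conditions were untreated cells; cisplatin at 50 µM for 24 h; and the same cisplatin treatment of cells given 10 µM Telmisartan, Tranilast or Amphotericin B for 24 h beforehand. Telmisartan is an angiotensin receptor blocker, Tranilast an anti-allergic drug and Amphotericin B an antifungal drug, and no library of a drug without cisplatin was analysed here. The untreated cells therefore lack both cisplatin and the drug, and in the 3 drug arms the effects of cisplatin and of the drug cannot be told apart against them.

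Cisplatin binds DNA bases and forms adducts and crosslinks within and between strands. RNA polymerase II stops at such adducts until they are removed, mainly by nucleotide excision repair, and replication forks that meet them call on the Fanconi anaemia and recombination pathways. Cells answer DNA damage through checkpoint kinases, p53 and stress-activated MAP kinases, which act on the cell cycle and on immediate early genes such as JUN. Copper transporters carry part of the drug across membranes.

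Libraries held between 1510620 and 3517041 counts, so that the limit of 3 counts stands for 8.53e-05% to 0.000199% of a library, counting error only. Of the markers of an ovarian epithelial line, KRT18, EPCAM and KRT8 were detected. In untreated cells they were at 84.0 to 92.4, 39.9 to 43.5 and 16.3 to 16.9 CPM, the count scaled to library size and TMM factor. In treated libraries KRT18 was at 104.5 to 209 (above), EPCAM at 11.2 to 25.7 (below) and KRT8 at 7.14 to 26.3 (neither side). PAX8, KRT7, MUC16 and MSLN were at 0 in all untreated libraries and at most 3.21 in any other. KRT19 was at 1.02 to 3.83 in untreated cells. WT1, SOX17 and CDH6 were at most 0.981 in any library, and FOLR1 had no count. Of the leukocyte markers, PTPRC, which encodes CD45, was at 64.5 to 75.4 CPM in untreated cells and 2.45 to 22.1 in the treated libraries, CD14 stayed at or under 2.41, and CD3E and ITGAM had no count. Endothelial markers had no count, and the fibroblast markers COL1A1 (6.38 to 8.63 untreated, 11.2 to 32.8 treated) and COL1A2 (at most 6.70) were low. The part of other cells in the results was not tested.

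A pair of libraries stood furthest from their own condition. Cisplatin replicate 1 correlated best with Telmisartan replicate 2 (r = 0.956 across genes, against 0.913 and 0.895 with the other cisplatin libraries), and 13.7% of its counts were mitochondrial ribosomal RNA, against 5.61% and 3.41%. Telmisartan replicate 3 was nearest to Tranilast replicate 1 (r = 0.978, against 0.923 and 0.917 with the other Telmisartan libraries), with 3.61% mitochondrial ribosomal RNA against 10.8% and 12.9%. It also correlated better with cisplatin replicates 2 (r = 0.933) and 3 (r = 0.968) than with its own condition, as cisplatin replicate 1 did with Telmisartan replicates 1 (r = 0.953) and 2. Whether the labels of these libraries were exchanged between the cisplatin and Telmisartan arms was not tested, and counts of calls over all genes between these arms are given with and without both. By smaller margins, cisplatin replicate 3 was nearest to Telmisartan replicate 3 (r = 0.968, against 0.964 within its condition), and Amphotericin B replicates 1 and 2 to Telmisartan replicate 2 (r = 0.948 and 0.945, against 0.945 and 0.940). The share was 1.79% to 2.20% in untreated, 2.10% to 2.53% in Tranilast and 12.3% to 14.8% in Amphotericin B libraries. Both libraries are labelled as given cisplatin, so the rule of 12 against 3 does not depend on their arm, whereas comparisons between arms do. Without them 765 genes lay above and 1711 below, including 687 of the 692 and 1562 of the 1567.

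Among tested genes 6.08% lay above and 13.1% below. These shares describe the rule itself and carry no test, as do all differences from untreated cells given for the genes that it chose. The fitted mean difference of the 4 arms from untreated cells (edgeR quasi-likelihood fit, log2 fold change) had a median of 0.98 for the genes above and −1.15 for those below, against −0.07 over all genes tested. It exceeded 2-fold for 325 genes above and 888 below, and 4-fold for 46 and 179. Over all genes, 17.2% were higher and 23.8% lower in the pooled comparison at an adjusted p under 0.05, a comparison that uses the same libraries as the rule. In bulk RNA, fewer cells with a transcript and less of it per cell cannot be told apart. The normalisation also matters for the balance of the sides: genes above made up 30.6% of the 2259, 34.5% with relative log expression factors, 38.1% with upper quartile factors and 15.9% when counts were scaled to library size only, which moved the median of all genes from −0.07 to −0.33.

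Of the gene lists examined, that for the start of S phase had the largest share above. Of 35 tested genes for the G1/S transition and DNA replication, 26 lay above (74.3%, against 6.08% of all tested genes) and 1, CCND2, below. The median log2 fold change of the list was 1.24. Of 16 genes for loading and activation of the replicative helicase 14 lay above, with CDC6 and MCM6 as the exceptions. Of the 12 cyclins, kinases and E2F factors, 7 lay above, while CCND1, CDK4, CDK6 and E2F3 lay on neither side, and 5 of 7 genes for nucleotide supply and polymerases did, all but POLA1 and POLE2. With library sizes alone the list kept 13 genes above and its median was 0.97.

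CDT1, which loads the MCM helicase at origins, was at 55.8, 49.2 and 43.5 CPM in untreated cells and between 151 and 241 (median 191) in the treated libraries. E2F1, the transcription factor that drives G1/S genes, was at 18.5, 22.4 and 18.6 CPM untreated and 55.2 to 129 (median 64.3) treated. No treated library came near the untreated ones, with 2.68-fold (CDT1) and 2.41-fold (E2F1) between the nearest libraries of the sides (prior count of 2). The log2 fold changes were 1.97 (SE 0.17) and 1.93 (SE 0.23). TK1, a thymidine kinase, went from 29.4 to 31.9 CPM in untreated to 78.4 to 139 in treated libraries, and RRM2, a subunit of ribonucleotide reductase, from 62.4 to 82.3 to 175 to 274. MCM2, a helicase subunit whose gene overlaps TPRA1 on the other strand, was at 40.3 to 51.7 CPM and 107 to 181, and UNG, which removes uracil from DNA, at 43.4 to 49.9 and 115 to 312. These 6 genes were all within 1.504 to 2.008 on the log2 scale, and 5 of them did not pass the test of a difference among the arms; UNG did (adjusted p = 0.013).

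E2F factors bind short GC-rich elements near the starts of such genes. Promoter windows of 250 bases before to 50 after the start (RefSeq, GRCh38.p14) were matched by symbol for 516 of the 629 protein-coding tested genes above, 1145 of 1405 below and 8153 of 10081 in all. Any of the letters TTTCGCGC, TTTCCCGC or TTTGGCGC on either strand stood in 8.68% of 680 windows of genes above, 2.77% of 1877 windows of genes below, 4.32% of 11915 windows of all tested genes and 2.74% of all 35116 windows. The windows of E2F1, CDT1 and MCM2 each hold such a match, shown in capitals, which in MCM2 is 2 overlapping matches on opposite strands. E2F1 is at chr20:33686336-33686635 (minus strand), CDT1 at chr16:88803539-88803838 (plus strand) and MCM2 at chr3:127598161-127598460 (plus strand). The windows of TK1, UNG and RRM2 hold none of these letters. A match describes the letters only.
E2F1: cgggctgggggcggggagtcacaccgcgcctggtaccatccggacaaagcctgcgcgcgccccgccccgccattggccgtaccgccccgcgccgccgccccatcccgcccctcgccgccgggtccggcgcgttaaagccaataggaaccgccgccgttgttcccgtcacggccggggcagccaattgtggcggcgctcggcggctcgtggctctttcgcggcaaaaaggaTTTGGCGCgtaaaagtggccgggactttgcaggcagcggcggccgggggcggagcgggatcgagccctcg
CDT1: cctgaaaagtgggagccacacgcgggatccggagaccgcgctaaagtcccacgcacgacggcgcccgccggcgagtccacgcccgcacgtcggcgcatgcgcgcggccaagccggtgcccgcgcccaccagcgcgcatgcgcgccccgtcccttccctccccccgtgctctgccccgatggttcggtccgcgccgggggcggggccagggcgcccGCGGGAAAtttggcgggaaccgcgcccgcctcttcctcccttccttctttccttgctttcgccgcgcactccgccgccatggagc
MCM2: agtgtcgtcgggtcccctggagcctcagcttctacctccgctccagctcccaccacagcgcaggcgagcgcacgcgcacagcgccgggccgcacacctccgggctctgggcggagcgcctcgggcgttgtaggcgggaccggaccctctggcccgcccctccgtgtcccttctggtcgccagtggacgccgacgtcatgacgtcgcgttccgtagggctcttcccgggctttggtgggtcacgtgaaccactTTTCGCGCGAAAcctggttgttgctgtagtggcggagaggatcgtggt

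**Figure D1:**
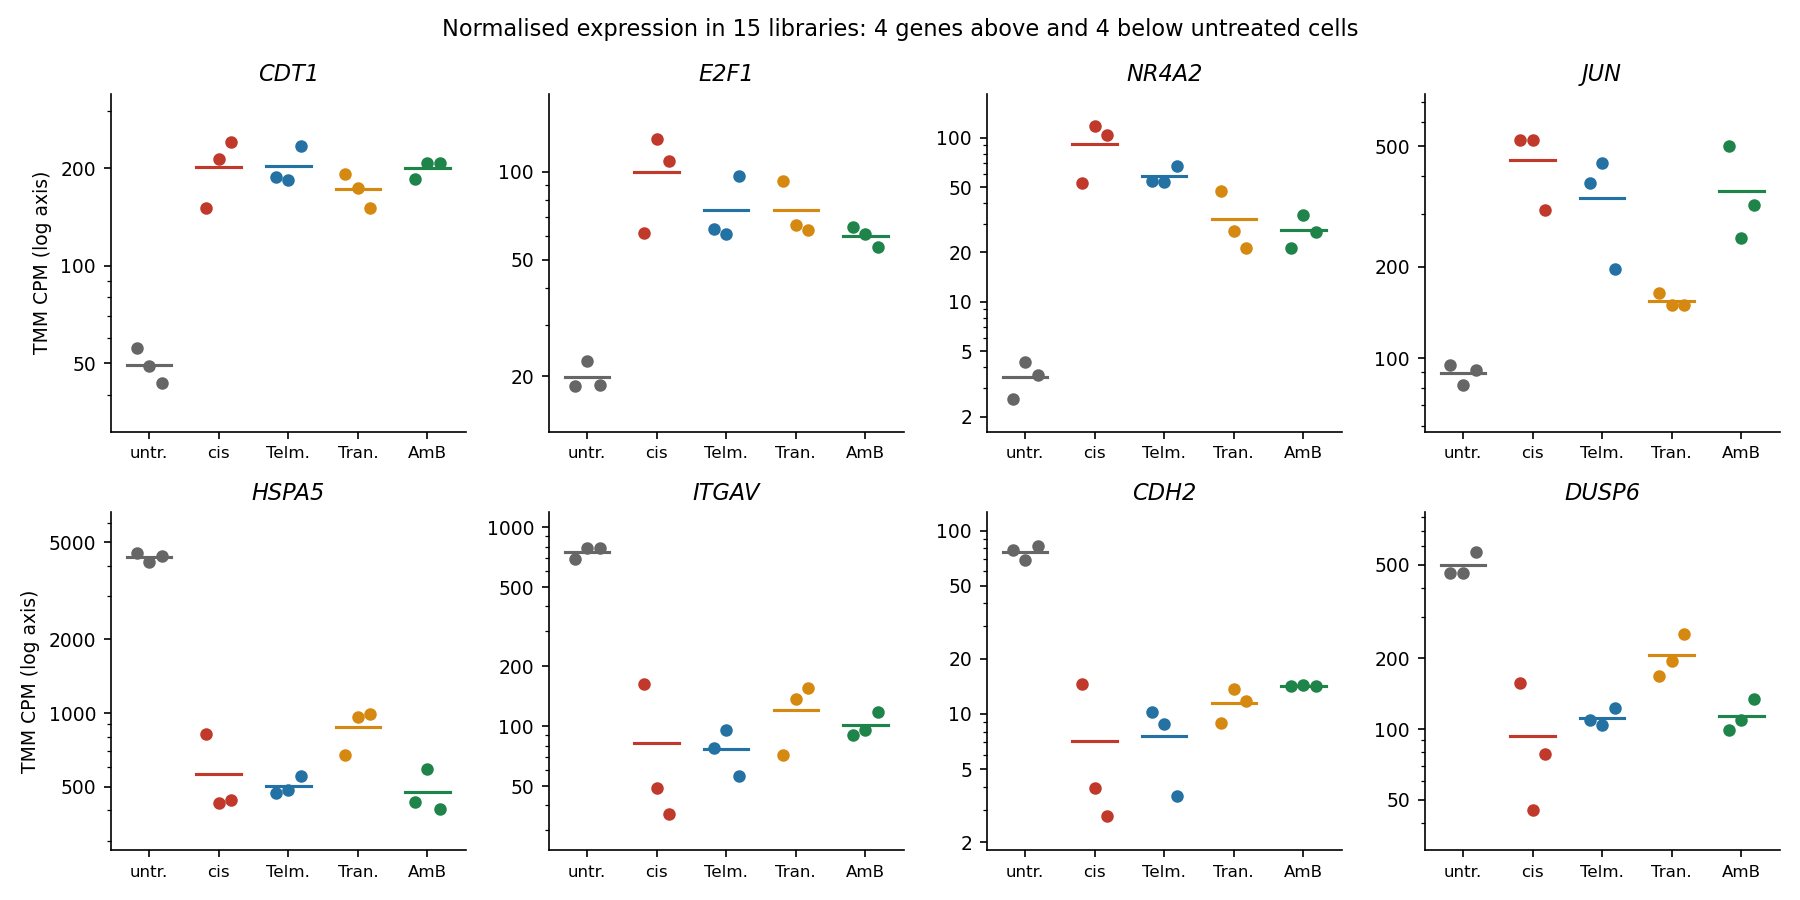
TMM-normalised CPM (log axis) of 4 genes above and 4 below in each of the 15 libraries. Points are libraries and lines are means of the 3 libraries of untreated cells (untr.), cisplatin (cis), Telmisartan (Telm.), Tranilast (Tran.) and Amphotericin B (AmB) with cisplatin. In each panel no treated library reaches the untreated range, CDT1 lies between 151 and 241 CPM in all 4 arms, and among treated libraries JUN is lowest in the 3 of Tranilast.

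Later cell cycle genes lay mostly on neither side or below. Of 34 tested genes of G2/M and mitosis 10 lay below (29.4%, against 13.1% of all tested genes). PLK1, CCNB1, TOP2A and TPX2 were among them, and CDK1 alone lay above. CENPE, a kinetochore motor, was at 144, 162 and 149 CPM in untreated and 36.3 to 89.1 (median 68.1) in treated libraries. HMMR, a spindle protein, was at 71.1, 88.1 and 75.1 against 28.9 to 45.5. Of 17 tested replication-dependent histone genes none lay above, and the linker histones HIST1H1C, HIST1H1D and HIST1H1E lay below. That is 17.65% below, near the 13.1% of all tested genes, of which 6.08% lay above. HIST1H1C went from 134 to 170 CPM to 44.1 to 75.5, and its arm means were 57.2 to 67.7 CPM.

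DNA repair genes lay on both sides, and a difference between pathways was not tested. Of 34 tested genes of the Fanconi, recombination and translesion pathways, 7 lay above (FANCA, FANCB, FANCG, UBE2T, RAD51C, XRCC3 and MAD2L2) and 2 below (POLK and RAD51B), 20.6% and 5.88% against 6.08% and 13.1% of all tested genes. With library sizes alone 4 lay above. FANCA, part of the Fanconi core complex, was at 9.88, 9.78 and 10.7 CPM untreated and 16.7 to 33.9 (median 23.2) treated, and UBE2T, the conjugating enzyme of that pathway, at 16.4 to 17.2 and 25.9 to 52.1. Nucleotide excision repair gave 3 above (ERCC3, LIG1 and RPA2) and 4 below (GTF2H3, LIG3, MNAT1 and RAD23B) of 27, or 11.1% and 14.8%. With each of the other 3 scalings 2 of the list lay below, and with library sizes alone none lay above.

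Of 28 tested p53 targets, 4 lay above (14.3%, against 6.08% of all tested genes). They were BAX, which opens the outer mitochondrial membrane in apoptosis, BTG2, PLK3 and TRIAP1. ZMAT3 lay below. BAX was at 47.2, 47.2 and 54.0 CPM untreated and 66.6 to 146 (median 94.5) treated, and BTG2, an antiproliferative gene, at 2.04 to 3.19 and 4.01 to 18.2. The median of the list, 0.17, was close to that of all genes, and with library sizes alone it was −0.10, with 1 gene above. BAX was also the single gene above of 12 tested BCL2 family genes (8.33%), with none below.

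Immediate early genes, which answer stress and growth signals within minutes, were above in part. Of 8 tested AP-1 and ATF3 factors JUN, JUNB and FOSB lay above and none below, and of 17 other immediate early genes NR4A1, NR4A2, KLF10 and IER5 lay above. The shares above were 37.5% and 23.5%, against 6.08% of all tested genes. NR4A2, an orphan nuclear receptor on chromosome 2 (156324432 to 156342348, GENCODE 29 on GRCh38), had the widest gap of all genes above: 2.55, 4.32 and 3.56 CPM in untreated cells and 21.3 to 118 (median 50.4) in the treated libraries, a log2 fold change of 3.71 (SE 0.34). Its treated values were highest in the cisplatin arm, 91.6 ± 34.1 CPM (SD, n = 3), and lowest in the Amphotericin B arm, 27.3 ± 6.19. JUN was at 94.7, 81.7 and 91.6 CPM untreated and 150 to 523 (median 314) treated. FOSB, which overlaps ERCC1 on the other strand, was at 4.33 to 5.18 and 6.54 to 50.5 CPM.

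Feedback on MAP kinases went in both directions. Of 13 tested genes, DUSP1, a phosphatase that acts on stress kinases, lay above, while DUSP6, the phosphatase of ERK, and the inhibitors SPRY1, SPRY2 and SPRED1 lay below. The shares were 7.69% above and 30.8% below, against 6.08% and 13.1% of all tested genes. DUSP1 was at 1.28, 2.01 and 1.27 CPM in untreated cells and 5.04 to 10.4 in treated ones. DUSP6 was at 461, 464 and 569 CPM and 45.1 to 255 (median 116). The promoter window of DUSP1 holds the cyclic AMP response element TGACGTCA, shown in capitals (chr5:172771146-172771445, minus strand), which stood in 3.24% of the windows of genes above, 2.61% below and 3.11% of all tested.
DUSP1: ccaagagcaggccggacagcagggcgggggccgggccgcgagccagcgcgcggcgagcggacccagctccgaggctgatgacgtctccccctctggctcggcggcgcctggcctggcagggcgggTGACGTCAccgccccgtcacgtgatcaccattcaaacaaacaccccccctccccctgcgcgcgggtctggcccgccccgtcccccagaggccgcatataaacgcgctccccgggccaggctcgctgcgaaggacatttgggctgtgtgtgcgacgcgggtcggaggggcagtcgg

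Genes that control transcription elongation included HEXIM1, an inhibitor of the elongation kinase P-TEFb, above. HEXIM1 was at 55.5, 47.8 and 50.4 CPM untreated and 62.4 to 236 (median 174) treated. Of the 23 tested genes of that list 2 lay above and 2 below (8.70% each, against 6.08% and 13.1% of all tested genes). The number above was 4 with relative log expression factors, 5 with upper quartile factors and 1 with library sizes alone, where 754, 827 and 340 of all tested genes lay above.

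The largest share below was in the list of endoplasmic reticulum chaperones. Of 19 tested genes for folding and disposal of proteins there, 10 lay below (52.6%, against 13.1% of all tested genes) and 1, SDF2L1, above. The median log2 fold change of the list was −1.22. The 10 were HSPA5, HSP90B1, HYOU1, CANX, PDIA3, PDIA4, PDIA6, DNAJC3, SEL1L and XBP1, and the same number lay below with relative log expression and upper quartile factors. HSPA5, the chaperone BiP, on chromosome 9 (125234853 to 125241330), was at 4524, 4140 and 4370 CPM in untreated cells and 403 to 991 (median 519) in treated cells. SEL1L, which holds the ligase complex that clears misfolded proteins, was at 92.1, 92.1 and 96.0 CPM and 4.47 to 21.5 (median 8.38). Their log2 fold changes were −2.89 (SE 0.17) and −3.20 (SE 0.24), and the Tranilast libraries held the highest treated value of both.

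The ER stress response element, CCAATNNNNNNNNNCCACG, is the site through which ATF6 and NF-Y act on such chaperones. On either strand it stood in 0.426% of windows of genes below (8 of 1877), none of 680 above, 0.143% of all tested and 0.0769% of all windows. Its first 5 letters are also the CCAAT box, which stood in 43.7% of windows of genes above, 33.2% below and 34.8% of all tested. The window of HSPA5 (chr9:125241294-125241593, minus strand) holds 1 full element, in capitals.
HSPA5: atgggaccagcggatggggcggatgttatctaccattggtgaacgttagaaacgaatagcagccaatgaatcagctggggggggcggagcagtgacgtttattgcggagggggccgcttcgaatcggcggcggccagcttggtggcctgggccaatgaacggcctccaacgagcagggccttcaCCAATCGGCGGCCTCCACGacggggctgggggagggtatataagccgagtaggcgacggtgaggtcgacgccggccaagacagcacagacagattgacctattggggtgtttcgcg

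Genes of the integrated stress response, which ATF4 drives when translation initiation is curbed, also lay below in part. Of 22 tested genes 8 lay below (36.4%, against 13.1% of all tested genes) and none above. The 8 were DDIT3, ATF5, CEBPG, NUPR1 and the amino acid synthesis genes ASNS, PHGDH, PSAT1 and PSPH. ASNS, asparagine synthetase, was at 1025, 957 and 1066 CPM untreated and 192 to 679 (median 397) treated, and NUPR1, a stress-induced chromatin protein, at 25.03 to 28.69 and 1.02 to 14.2. Over the whole list the medians differed among the arms, at −1.18 for cisplatin, −0.92 for Telmisartan, −0.05 for Tranilast and −1.52 for Amphotericin B, and 18 of the 22 genes passed the test of a difference among the arms, where 33.4% of all tested genes did. With Tranilast 13 of the 22 were higher than with cisplatin alone (10.5% of all genes) and none lower, and 12 of these 13 were among the 18.

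Surface and matrix genes made up the next group below. Of 26 tested genes for matrix, adhesion and mesenchymal state 13 lay below (50.0%, against 13.1% of all tested genes). Among them were 6 integrins (ITGA2, ITGA5, ITGA6, ITGAV, ITGB1 and ITGB5), laminin chains LAMB1 and LAMC1, COL5A2, FBN1 and the factor ZEB1. CDH1, epithelial cadherin, and COL1A1 lay above. CDH2, neural cadherin, on chromosome 18 (27950966 to 28177446), was at 78.1, 69.1 and 82.0 CPM untreated and 2.78 to 14.6 (median 10.97) treated. It had the widest gap of all genes, 4.56-fold between the highest treated and the lowest untreated library. ITGAV, the integrin alpha V chain, was at 695, 783 and 787 CPM and 36.1 to 163 (median 92.9), and POSTN, the matrix protein periostin, at 1516, 1465 and 1531 and 62.8 to 322 (median 182). In these 3 genes the highest treated value was that of cisplatin replicate 1, and the other 2 cisplatin libraries included the lowest.

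Among the other genes with the widest gaps below, SEMA3A, a secreted guidance cue, was at 78.9 to 85.4 CPM untreated and 4.42 to 18.6 treated. ALCAM, an adhesion molecule of the immunoglobulin family, was at 209 to 243 and 8.74 to 52.1, and GLG1, a Golgi glycoprotein, at 108 to 115 and 8.83 to 28.4. Their log2 fold changes lay between −3.20 and −2.60. None of the 8 protein-coding genes with the widest gaps below passed the test among the arms except HSPA5 (adjusted p = 0.029). On either strand POSTN has 2 matches to TATAAA within its window (chr13:37598719-37599018, minus strand). The nearer of them lies 29 bases before the start, and the farther is on the opposite strand and reads TTTATA here. These letters stood in 5.15% of windows of genes above, 6.66% below and 5.49% of all tested.
POSTN: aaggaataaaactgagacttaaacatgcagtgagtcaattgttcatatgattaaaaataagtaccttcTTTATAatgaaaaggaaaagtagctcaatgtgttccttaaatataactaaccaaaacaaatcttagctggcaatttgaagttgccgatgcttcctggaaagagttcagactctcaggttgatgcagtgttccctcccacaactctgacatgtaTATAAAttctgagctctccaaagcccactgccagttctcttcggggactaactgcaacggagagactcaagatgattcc

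Genes of growth factor signalling lay below in part. Of 23 tested genes of receptor tyrosine kinase and insulin signalling 7 lay below (30.4%, against 13.1% of all genes) and none above. The 7 were the receptors ERBB2, ERBB3, INSR and IGF2R, the adaptors GRB10 and GAB2 and the kinase PIK3CA. INSR, the insulin receptor, was at 15.6, 13.2 and 12.7 CPM untreated and 0 to 4.81 (median 2.14) treated, and IGF2R, which takes up IGF2 for degradation, at 49.5 to 67.0 and 4.81 to 17.6. TGF-beta signalling gave 5 of 22 below (22.7%) and none above, with 3 below under upper quartile factors. BMPR2, a type II receptor, went from 44.3 to 50.2 CPM to 7.94 to 31.8. CXCL1, a chemokine and NF-kappaB target, was at 56.4 to 62.1 CPM and 3.92 to 28.9. It was the single gene below of 12 tested on its list (8.33%).

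The study concerned copper transporters as carriers of platinum. ATP7A, a copper-exporting ATPase whose gene overlaps PGK1 on the same strand, lay below, at 7.33, 7.77 and 9.93 CPM untreated and 0 to 5.96 (median 2.27) treated, a log2 fold change of −1.79 (SE 0.37). ATP7B, its relative, had 0 to 5 counts per library and was not tested. SLC31A1, the copper importer CTR1, lay on neither side (142, 148 and 165 CPM untreated, 40.5 to 157 treated), as did SOD1 (330 to 353 and 325 to 1103) and the chaperones ATOX1 (47.1 to 66.0 and 32.1 to 324) and COX17 (47.5 to 70.5 and 30 to 172). With Tranilast, ATOX1 (log2 −1.81), SOD1 (−1.16) and COX17 (−1.47) were lower than with cisplatin alone (edgeR, adjusted p = 0.0060, 0.011 and 0.027). Cisplatin replicate 1, which stands apart, held the highest cisplatin value of each. In cisplatin replicates 1, 2 and 3 ATOX1 was at 264, 148 and 85.0 CPM, SOD1 at 1103, 660 and 502 and COX17 at 172, 70.6 and 54.0. The Tranilast libraries were at 32.1 to 56.6, 325 to 357 and 30.5 to 42.4. Fits of these genes without replicate 1 are not given here. Between Tranilast and cisplatin alone SLC31A1 (0.40) and ATP7A (0.63) did not pass (adjusted p = 0.31 and 0.50). With Amphotericin B SLC31A1 was lower than with cisplatin alone (log2 −1.09, edgeR, adjusted p = 0.023). With Telmisartan it did not pass (−0.51, adjusted p = 0.54). Against untreated cells ATOX1 was at 1.605 with cisplatin, 1.47 with Telmisartan, 2.39 with Amphotericin B and −0.21 with Tranilast. SCO2, a copper chaperone of cytochrome oxidase, lay above at 29.1 to 29.7 CPM against 41.8 to 122, and LRRC8D, a subunit of the volume-regulated channel that passes platinum drugs, lay below at 43.7 to 47.5 against 3.56 to 35.0.

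Of 23 tested polycomb genes 4 lay below (BMI1, JARID2, RNF2 and PCGF5) and 1, PHF19, above, which is 17.4% and 4.35% against 13.1% and 6.08% of all tested genes. JARID2 was at 64.1, 65.0 and 72.8 CPM untreated and 8.34 to 48.8 treated. Of 22 tested NRF2 targets and glutathione genes FTL, HMOX1 and OSGIN1 lay above (13.6%) and ME1 below (4.55%). FTL, the ferritin light chain, was at 179 to 185 CPM untreated and 306 to 935 treated. Of 25 cholesterol synthesis genes 5 lay above (ACAT2, EBP, INSIG1, MSMO1 and MVD) and none below, at 0.80 to 1.54 on the log2 scale.

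Of 26 tested genes of the mitochondrial genome 9 lay above (34.6%, against 6.08% of all tested genes) and none below (against 13.1%). The medians of this list were 1.825 with cisplatin, 1.63 with Telmisartan, 0.21 with Tranilast and 2.075 with Amphotericin B. With Tranilast 19 of the 26 were lower than with cisplatin alone, where 11.6% of all genes were. Of 75 genes for mitochondrial ribosomal proteins 12 lay above (16.0%, against the same 6.08%) and none below. When only library sizes were used, 7 lay above and 2 below. MT-TP, the proline transfer RNA, was at 42.4, 63.6 and 59.1 CPM untreated and 96.6 to 567 treated, lowest in a Tranilast and highest in an Amphotericin B library. The share of mitochondrial ribosomal RNA given above moved with these values, and its part in them was not tested. Of 80 cytosolic ribosomal protein genes only RPL39 lay above (3 genes did with library sizes alone), although 61 were higher in the pooled comparison. The medians were 1.13 with cisplatin, 0.96 with Telmisartan, 1.26 with Amphotericin B and −0.12 with Tranilast, and 76 were lower with Tranilast than with cisplatin alone (11.6% of all genes were).

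**Figure D2:**
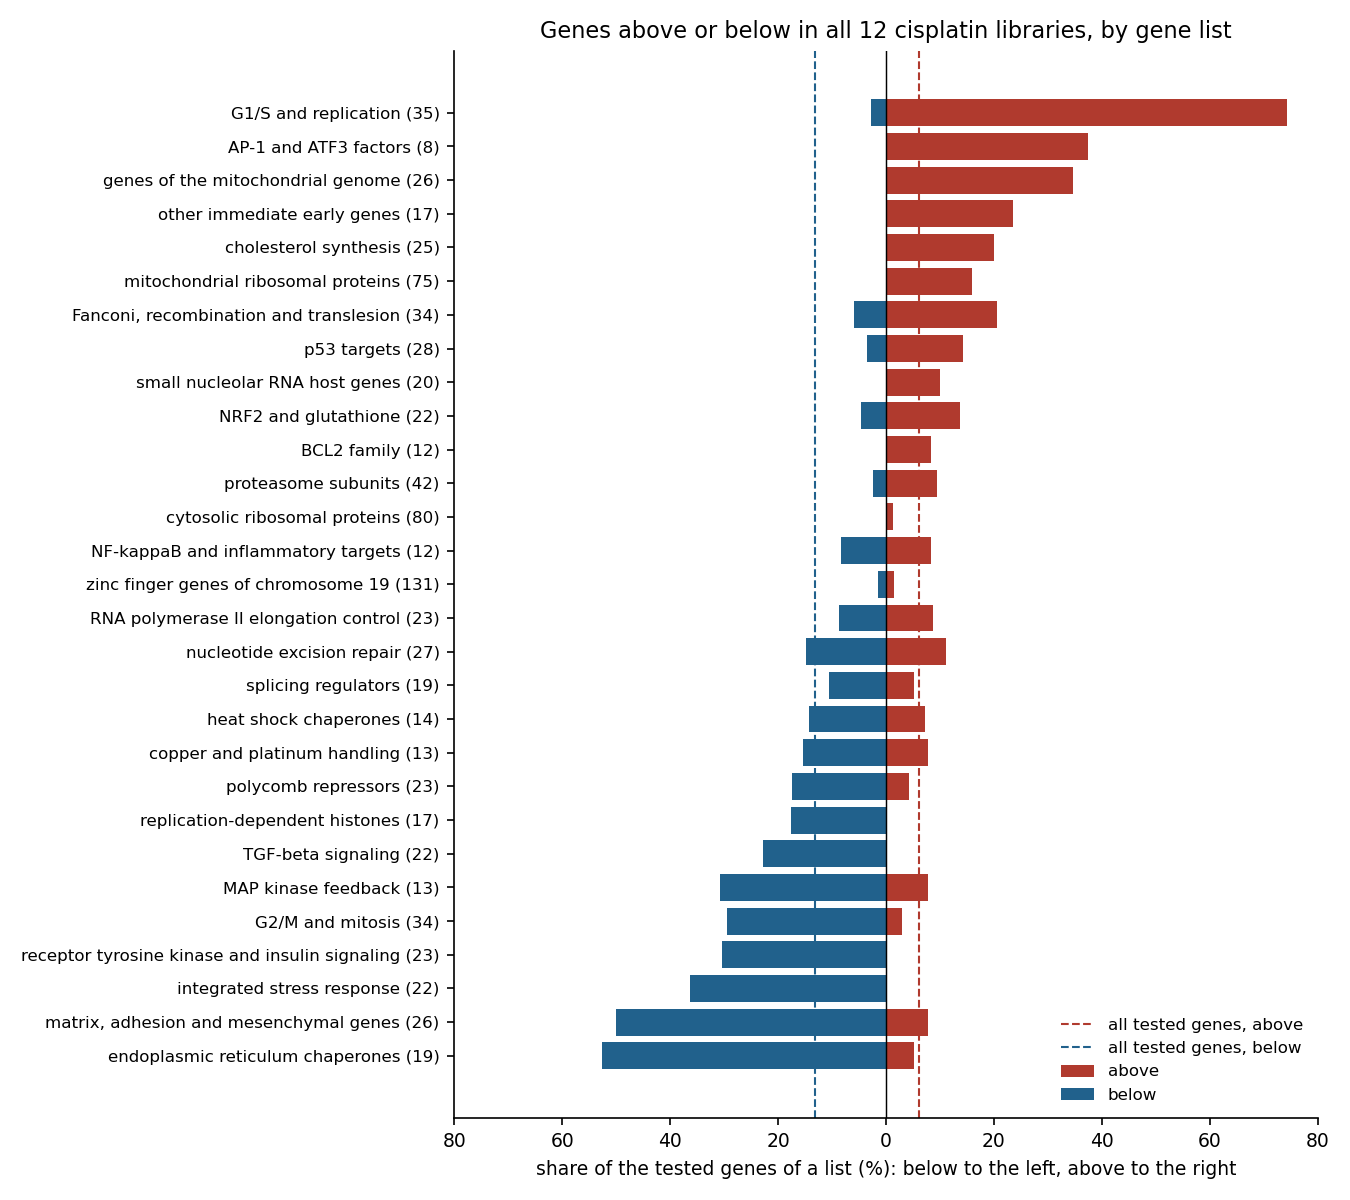
Share of the tested genes of each list (number in brackets) that lay above (right, red) or below (left, blue) untreated cells in all 12 cisplatin libraries. Dashed lines mark 6.08% above and 13.1% below over all tested genes. The G1/S and replication list reaches 74.3% above, and the endoplasmic reticulum and matrix lists reach 52.6% and 50.0% below.

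The genes above and below differed in genomic span, from the first to the last base of the gene model (GENCODE 29). Among protein-coding tested genes the median span was 11.1 kb above, 101 kb below and 32.7 kb over all. The share below rose from 3.18% of genes under 5 kb to 51.5% of those of 200 kb and over, and the share above went from 15.7% to 0. Within levels of expression the order was the same: the medians were 8.04 and 155 kb for genes under 3 log2 CPM and 11.2 and 53.9 kb for those of 7 and over. Of genes of 100 to 200 kb 33.0% lay below. CDH2, SEMA3A and ALCAM, of 226.5, 536.9 and 210 kb, lay below and are long. HSPA5 and DUSP6, of 6.48 and 6.04 kb, lay below all the same, and FANCA, of 79.1 kb, lay above. The shares of the gene lists were set against all tested genes and not against genes of like span. The part of span in them was not tested. The exonic length of the gene models also differed, with medians of 3.61 kb above and 7.40 kb below.

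Over all tested protein-coding genes of 200 kb and over, whether included or not, the median difference from untreated cells was −1.76 for cisplatin, −1.25 for Telmisartan, −0.94 for Tranilast and −0.88 for Amphotericin B. In genes under 5 kb it was 0.65, 0.48, 0.06 and 0.65. The arms share the 3 untreated libraries.

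**Figure D3:**
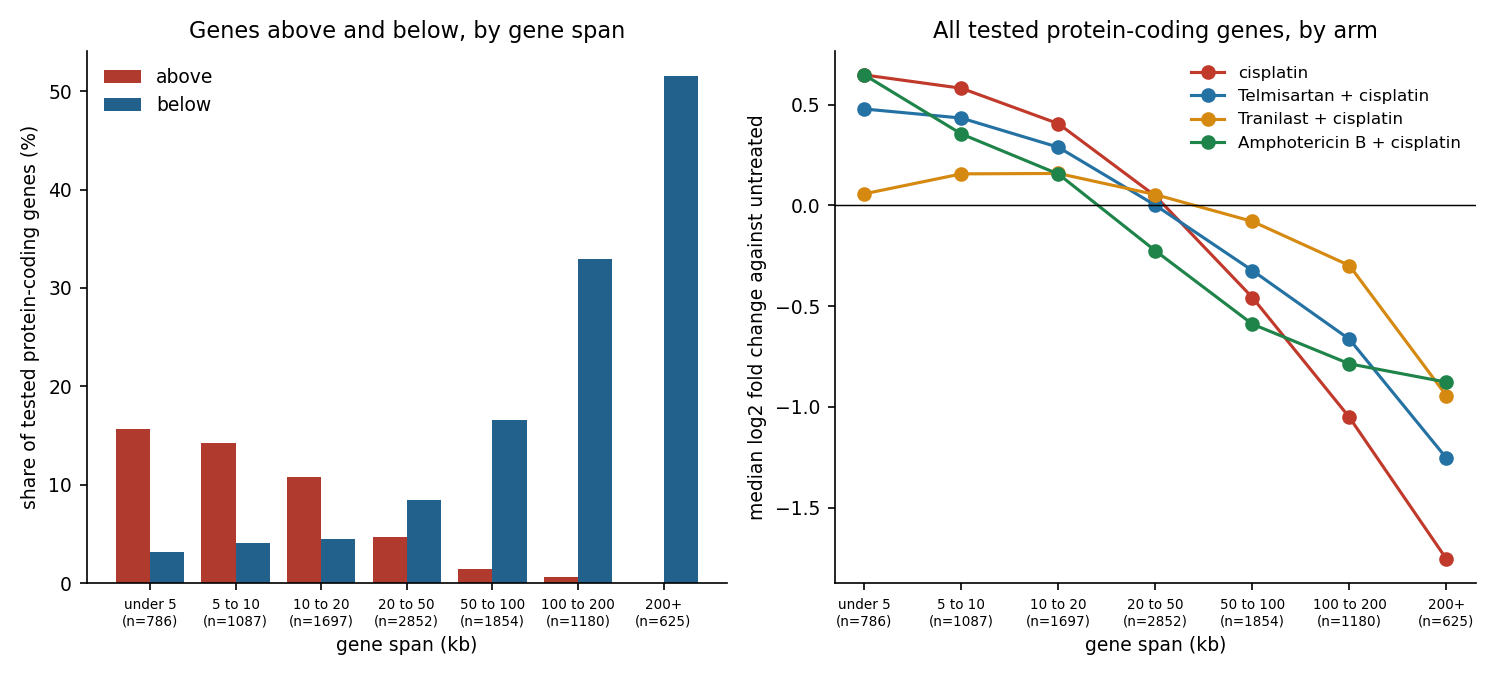
Left, share of tested protein-coding genes above (red) and below (blue) in all 12 cisplatin libraries by gene span, from 3.18% below under 5 kb to 51.5% below at 200 kb and over. Right, median log2 fold change of all those genes by span against untreated cells in each arm, which declines with span in all 4 arms apart from a small rise below 20 kb with Tranilast.

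Protein-coding genes made up 629 of the 676 tested genes above and 1405 of the 1453 below. Among the others, AL645608.7, a transcript of chromosome 1 known by its clone name, was at 1.28, 3.45 and 1.53 CPM untreated and 6.27 to 70.2 treated, and EMC3-AS1, which overlaps EMC3 on the other strand, at 37.9 to 42.7 and 69.8 to 269. The use of strand in counting is not given in the sources used here, so reads of such pairs cannot be told apart. Of the 20 tested host genes of small nucleolar RNAs SNHG12 and SNHG6 lay above (10%, against 6.08% of all tested genes). Below, LINC01184 was at 52.6, 60.1 and 57.0 CPM and 14.7 to 37.0, and DLGAP1-AS1 at 24.9 to 36.7 and 4.98 to 17.99.

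At the edge of the rule the sides touched. ZBTB39 (highest untreated 9.928, lowest treated 9.930 CPM) and GTF2H2B (13.24 and 13.24) were the last genes above, and LIG3 (lowest untreated 50.69, highest treated 50.68) and CEP70 (32.80 and 32.80) the last below. DROSHA (80.70 untreated, 80.76 treated) and DNAJC21 (196.8 and 197.0) missed the lower side by a single library each, both of Tranilast. With at least 1.5-fold between the sides, 71 genes lay above and 315 below.

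How many arms took part also bears on the word shared. With non-overlap taken arm by arm, 3220 genes lay above and 4010 below untreated cells with cisplatin, 2416 and 3609 with Telmisartan, 2642 and 3522 with Tranilast, and 3251 and 4525 with Amphotericin B. Above, 3122 genes did so in 1 arm, 1432 in 2, 925 in 3 and 692 in all 4, and below 2981, 1326, 1255 and 1567. Of the genes in 3 arms, the missing arm was Tranilast for 450 above and 583 below, and Amphotericin B for 305 and 419. By adjusted p in each arm, 1.57% of tested genes (174) were higher and 3.56% (396) lower in all 4 arms.

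**Figure D4:**
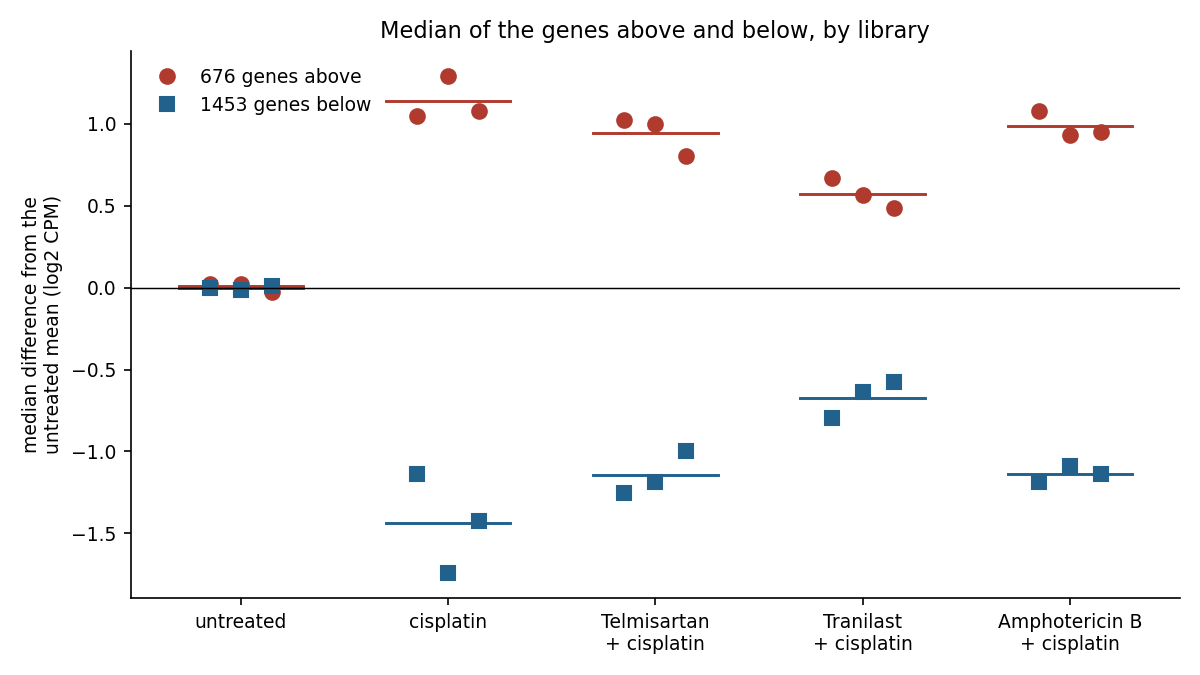
Median difference from the mean of the untreated libraries (log2 CPM) over the 676 genes above (red circles) and 1453 genes below (blue squares) in each library, with lines at the mean of each condition. All 12 cisplatin libraries were placed apart from untreated by the rule, and the 3 Tranilast libraries lie nearest to zero, between 0.49 and 0.67 above and −0.80 and −0.58 below.

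The rule did not compare the arms with each other, but it used the libraries of all of them, cisplatin alone included. Counts of its genes in comparisons between arms are therefore not independent of it, and their direction is a description. The median log2 fold change of the genes above was 1.20 with cisplatin, 0.99 with Telmisartan, 0.59 with Tranilast and 1.04 with Amphotericin B, and below it was −1.47, −1.17, −0.68 and −1.17. Tranilast had the smallest change of the 4 arms in 512 of the 676 genes above and 1016 of the 1453 below. An F test of the difference among the 4 arms passed for 316 genes above (46.8%) and 562 below (38.7%), against 33.4% of all tested genes. With the rule applied anew without the Tranilast arm, the test passed for 92 of all genes. Of the 1101 tested genes then above 18 passed, and of the 1956 then below 0. With the rule applied anew without both libraries that stand apart, it passed for 7131 genes, 528 of the 748 then above and 1130 of the 1572 then below.

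The rule placed the cisplatin libraries, to which each drug arm was compared, beyond the untreated range. Against them, with Tranilast, of the genes above 303 were lower and 1 higher, where 11.6% of all genes were lower and 10.5% higher, and of the genes below 536 were higher and 5 lower. Among the 8984 tested genes on neither side 632 were higher and 985 lower. Without both libraries that stand apart, 415 of the genes above were lower and 2 higher, and 898 of the genes below were higher and 2 lower. With library sizes alone 79 genes above were lower and 13 higher, and 980 genes below were higher and 1 lower. Over all genes 1169 were higher and 1293 lower, and with each library left out in turn 471 to 1571 and 569 to 1698, the lowest of these without cisplatin replicate 2 and Tranilast replicate 3. The 3 drug comparisons share the cisplatin libraries with each other and with the rule.

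With all 15 libraries Amphotericin B gave fewer calls than Tranilast. Of the genes above 83 were lower and 27 higher than with cisplatin alone, where 9.01% of all genes were lower and 4.21% higher, and of the genes below 97 were higher and 25 lower. These counts moved with single libraries. Over all genes 468 were higher and 1001 lower, against 46 and 163 without cisplatin replicate 2. Without cisplatin replicate 1, which stands apart, they were 1885 and 1949, and those of Tranilast 1423 and 1229. Without both libraries that stand apart Amphotericin B gave 2305 higher and 2577 lower, and Tranilast 2039 and 2048, so the order of the arms was reversed. With Amphotericin B, 203 of the genes above were then lower and 94 higher, and 504 of the genes below were higher and 96 lower. For Telmisartan 0% of tested genes passed by edgeR in either direction, with 1150 at an unadjusted p under 0.05, 136 of them among the genes above and 196 among those below, and DESeq2 called 4 higher and 26 lower. Without cisplatin replicate 1 it was 301 higher and 244 lower, and without both libraries that stand apart 1393 and 1408.

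**Figure D5:**
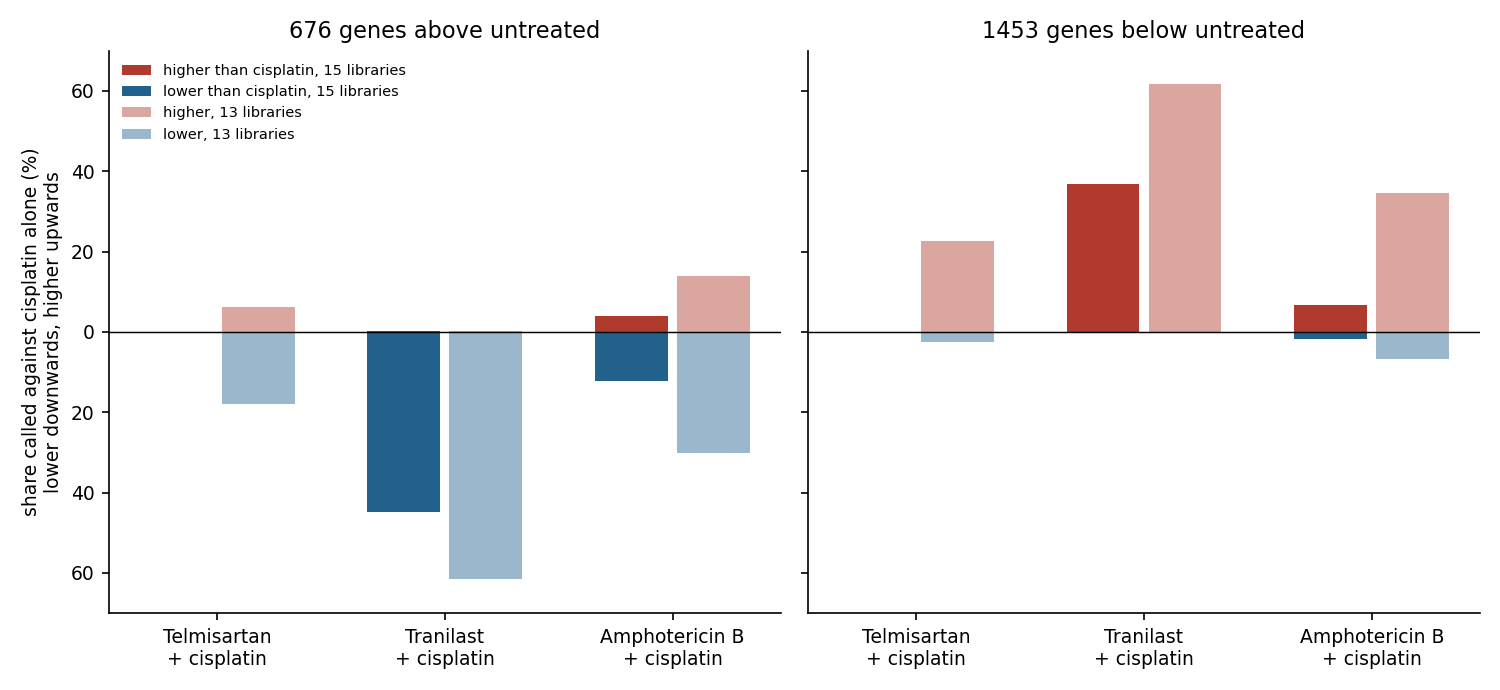
Share (%) of the genes above (left) and below (right) untreated cells that were called higher (upwards, red) or lower (downwards, blue) than cisplatin alone in each drug arm, edgeR, adjusted p under 0.05. Dark bars use all 15 libraries and pale bars leave out both libraries that stand apart. With Tranilast 44.8% of the genes above were lower and 36.9% of the genes below were higher.

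Single genes show both kinds. Among the genes above, HEXIM1 (−1.56, SE 0.22, adjusted p = 0.0011) and FOSB (−2.35, SE 0.33, adjusted p = 0.0011) were lower with Tranilast than with cisplatin alone on the log2 scale, as were JUN (−1.54, SE 0.29, adjusted p = 0.0027) and FTL (−1.17, SE 0.21, adjusted p = 0.0020). ISG15, a ubiquitin-like protein induced by interferon, was lower with Tranilast (61.2 ± 9.87 CPM) and higher with Amphotericin B (218 ± 4.64) than with cisplatin alone (108 ± 18.7, SD, n = 3), at adjusted p = 0.0064 and 0.0049 by edgeR. HSPA8, a heat shock chaperone, did the same (adjusted p = 0.020 and 0.047). Among the genes below, JARID2 (1.91, SE 0.32, adjusted p = 0.0017) and ARHGAP35, a GTPase-activating protein (1.77, SE 0.27, adjusted p = 0.0014), were higher with Tranilast. CDT1 and RRM2 showed no such difference, at −0.23 (SE 0.19) and 0.07 (SE 0.17), adjusted p = 0.39 and 0.82, which does not show that the arms act alike.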

How the data were processed

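The authors sequenced QuantSeq 3′ libraries and deposited 1 table of raw read counts per library, with Ensembl gene identifiers and no normalisation. The submitters' processing notes name STAR 2.3.0, HTSeq and hg19. The annotation release and strand setting are not given in the sources used here. The labels call the replicates biological without saying whether they were separate cultures, so p-values measure the spread between these libraries.

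Of 47634 identifiers, 45776 were named from GENCODE 29 (GRCh38, another build than hg19), which gave symbols, spans and positions. In R 4.3.3, edgeR 4.0.16 (filterByExpr by condition, TMM, quasi-likelihood fit with 5 condition terms on all 15 libraries) tested 11113 genes, with p adjusted by Benjamini and Hochberg over all of them at 0.05. Log2 CPM used a prior count of 2. Each SE was obtained by dividing the size of a fitted change by the root of its F statistic. Replicates differed beyond counting error (chi-square per degree of freedom at least 2.24). Alternatives used limma 3.58.1 and DESeq2 1.42.0, and summaries Python 3.11.15 with pandas 2.3.3. Code was tested on simulated data.

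The members, gene lists and markers were chosen with earlier results of these data known. Named genes follow a rule: the 8 coding and 3 noncoding genes with the widest gap on each side, 2 per list, the 2 nearest the edge on each side, the 3 with the smallest p among arms, and 6 copper genes. Some genes selected this way are not reported here. Genes named without values are the other members of a list.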

Additional observations from a re-analysis of the deposited data

Results flagged for a closer look

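Named genes above or below whose 4 cisplatin arms differed from each other by the edgeR F test (adjusted p under 0.05 over all tested genes) are given here. Each has the range of its arm means, the largest minus the smallest log2 fold change against untreated cells. Named genes on neither side that passed were Z93241.1 (range 5.545, no count in untreated libraries), ATOX1 (2.60), SLC31A1 (1.49), SOD1 (1.43) and DNAJC21 (0.87). The arms share the untreated libraries, and 33.4% of all tested genes passed this test.

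Of the genes above, stress and signalling genes with wide ranges were FOSB (2.35), NR4A2 (1.76), IER5 (1.57), HEXIM1 (1.56), JUN (1.54), BTG2 (1.45) and NFKBIB (1.05). ISG15 differed by 1.83 and CSKMT, a methyltransferase of mitochondrial citrate synthase that overlaps LBHD1 on the other strand, by 2.16. HSPA8 (2.61), RPL39 (2.12), MRPL4 (1.28), FTL (1.17), SCO2 (1.15), BAX (0.79) and PSMG3 (0.75) also passed, as did ZBTB39 (1.39) and UNG (0.90). Among noncoding genes the ranges were 2.79 for AL645608.7, 1.25 for EMC3-AS1, 1.27 for SNHG12 and 1.51 for SNHG6, and among mitochondrial transfer RNAs 2.29 for MT-TP and 1.34 for MT-TY.

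Of the genes below, JARID2 (1.91), LRRC8D (1.84), ARHGAP35 (1.77), NUPR1 (1.74), IGF2BP2 (1.64), CXCL1 (1.5), ACSL3 (1.43) and BMPR2 (1.35) had the widest ranges. BMI1 (1.33), DUSP6 (1.15), AF121898.1 (1.12), ASNS (1.09), HSPA5 (0.89) and GTF2H3 (0.83) followed. CSKMT, ISG15, IER5, ARHGAP35, ACSL3 and IGF2BP2 were named for a small p of this very test.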

How the results depend on the processing

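No named gene changed direction in any of 32 alternatives: of 2749 values, 2703 kept direction and side of the threshold, 40 lost the call, most often GTF2H2B, DROSHA and Z93241.1, and 6 gained it. Direction against untreated cells was fixed by the rule for the genes it chose. In the counts below of the test among arms, the genes above and below were chosen anew with each alternative. Depth limits the 114 untested genes below, of which 14 had no count in any treated library.

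With library sizes alone 352 genes lay above, 872 were higher in the pooled comparison, 2582 were higher and 397 lower with Tranilast than cisplatin, 242 were higher with Amphotericin B, 85 were higher in all 4 arms, and the arms differed for 103 genes above and 951 below. At a threshold of 0.01, 1075 were higher in the pooled comparison, 407 higher and 491 lower with Tranilast, 52 and 241 with Amphotericin B, 71 higher and 153 lower in all 4 arms, and the arms differed for 1225 genes, 155 above and 212 below. For Telmisartan against cisplatin the test without a filter gave 1 higher and 1 lower, the likelihood ratio test 11 and 13, and DESeq2 4 and 26. For Amphotericin B the likelihood ratio test gave 779 and DESeq2 755 higher. With 1 term for all 12 libraries 955 were higher and 1481 lower in the pooled comparison, and a 1.5-fold gap left 71 genes above and 315 below. Without the Tranilast arm 1151 genes lay above and the arms differed for 92 genes, 18 above and 0 below, and without the Amphotericin B arm for 1258 genes, 341 of them below (both chosen after seeing the data for the test among arms). The cause was not tested.

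Without both libraries that stand apart, an alternative chosen after seeing the data, 1393 genes were higher and 1408 lower with Telmisartan than cisplatin, 2039 and 2048 with Tranilast, 2305 and 2577 with Amphotericin B, 448 higher and 921 lower in all 4 arms, and the arms differed for 7131 genes, 528 above and 1130 below.

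Leaving out each library in turn gave 710 to 869 genes above and 1579 to 1958 below. The pooled comparison gave 1114 to 2285 higher and 1968 to 3143 lower, and the calls in all 4 arms 72 to 276 higher and 140 to 648 lower. Against cisplatin alone Telmisartan gave 0 to 301 higher and 0 to 244 lower, Tranilast 471 to 1571 and 569 to 1698, and Amphotericin B 46 to 1885 and 163 to 1949. The arms differed for 1847 to 5535 genes, 197 to 427 above and 278 to 909 below. The libraries that moved a count by over 1.5 times were the untreated ones for the pooled comparison (1239, 1266 and 1114 higher without replicates 1, 2 and 3) and for calls in all 4 arms (94, 91 and 78 higher, 203, 219 and 189 lower). Cisplatin replicate 1 moved all 4 arms to 276 higher and 648 lower, and the arm test to 909 below. Without cisplatin replicate 2 Tranilast gave 471 higher and 719 lower and Amphotericin B 46 and 163, and without replicate 3 Amphotericin B gave 85 and 365. Tranilast replicates 1, 2 and 3 moved the arm test to 2384, 1926 and 1847 genes, with 202 and 197 above and 297 and 278 below for the last 2, and Tranilast against cisplatin to 825 lower, 605 and 667, and 525 and 569. Without Tranilast replicate 1 the calls in all 4 arms were 72 higher and 140 lower, without replicate 2 108 and 203, and without replicate 3 257 lower. For Amphotericin B, its own replicates 1, 2 and 3 gave 199, 272 and 139 higher and, for replicates 1 and 3, 529 and 298 lower, Telmisartan replicate 3 gave 892 higher, Tranilast replicate 2 306, and untreated replicates 1 and 2 311 and 309.

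Deviations from the condition mean had a mean r of 0.020 over 30 pairs of samples with the same number (−0.24 to 0.63). Over 60 pairs with different numbers it was −0.011 (−0.585 to 0.481). The highest value was that of cisplatin replicate 3 with Telmisartan replicate 3, a library that stands apart. The labels do not say whether the numbers pair the samples, and a mean over these pairs cannot decide it. With the replicate block 1933 genes were higher and 2733 lower in the pooled comparison and the arms differed for 3724, and the block moved no count by over 1.5 times.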
